A study of Mus musculus with 6 samples.

Results

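The Notch pathway and its DNA-binding factor Rbpj were followed in the marrow of mice with green fluorescent protein (GFP) driven by a renin transgene, in whole marrow and in its GFP-positive fraction. The members are 10 genes named by symbol: the ligands Jag1 and Dll1, the receptors Notch1, Notch2 and Notch4, the nuclear factors Rbpj and Maml1, and the targets Hes1, Dtx1 and Nrarp. All 10 were measured, by 22 probe sets, among 18193 named genes, and each gene was read at its brightest probe set, by the mean of all 6 arrays, with the others given beside it. Adult mice hemizygous for the transgene, 3 to 6 months old and of both sexes, were used in pools of 4 to 5 animals. Femoral marrow was pooled on each of 3 days, and 1 portion stayed unsorted (presort, n = 3) while the other went through the sorter for GFP (sorted, n = 3). Both groups carry the transgene, and presort and sorted replicates of 1 number come from 1 pool. The sort excluded erythrocytes and debris by scatter and its GFP limit admitted 0.1% of cells from animals without the transgene; presort marrow passed through no gate. RNA was read on Affymetrix 3' expression arrays, and values below are log2 of the deposited intensity unless another scale is named.

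In Notch signalling a ligand such as Jag1 or Dll1 on one cell binds a Notch receptor on its neighbour, which is then cut by an ADAM protease and by gamma-secretase. The freed intracellular part enters the nucleus, joins Rbpj and a Mastermind protein such as Maml1 on DNA, and turns on genes that Rbpj with corepressors otherwise holds silent. In blood formation Notch1 is known for T cell commitment in the thymus, and Notch2 for marginal zone B cells of the spleen.

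Rbpj binds DNA at the core TGGGAA, and longer sites often read GTGGGAA, which contains the core. The 250 bases upstream of annotated starts (RefSeq, GRCm38.p6) were searched for both on both strands, in 11 windows of the 9 members that matched the promoter table; Hes1 was not matched. The core lay in 2 windows, both of Rbpj, and GTGGGAA in 0 of the 11. The Rbpj windows overlap, and the 1 match of the second (chr5:53590236-53590485) is the same site as a match of the first, so they hold 2 sites in all. Over all 32851 windows of this length 21.6% held the core and 5.42% held GTGGGAA. The windows of the 4 matched members that changed in sorted samples are shown to set these letters beside their values, with each match in capitals. They are chr5:53590096-53590345 (plus strand), chr5:120711670-120711919 (minus strand), chr17:15376933-15377182 (minus strand, the outermost of its starts) and chr2:137116521-137116770 (minus strand), each written 5' to 3' along the gene. The Rbpj matches begin 149 and 65 bases before its start, the first on the gene's own strand and the other on the opposite strand.
Rbpj: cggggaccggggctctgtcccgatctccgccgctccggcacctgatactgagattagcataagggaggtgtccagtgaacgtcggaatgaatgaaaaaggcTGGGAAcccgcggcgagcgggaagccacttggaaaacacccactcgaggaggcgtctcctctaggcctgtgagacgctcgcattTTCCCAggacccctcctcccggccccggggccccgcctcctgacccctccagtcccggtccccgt
Dtx1: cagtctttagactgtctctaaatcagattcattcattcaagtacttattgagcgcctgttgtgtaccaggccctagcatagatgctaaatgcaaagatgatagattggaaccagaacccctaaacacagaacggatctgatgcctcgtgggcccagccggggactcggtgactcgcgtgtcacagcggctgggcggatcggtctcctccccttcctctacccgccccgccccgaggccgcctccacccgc
Dll1: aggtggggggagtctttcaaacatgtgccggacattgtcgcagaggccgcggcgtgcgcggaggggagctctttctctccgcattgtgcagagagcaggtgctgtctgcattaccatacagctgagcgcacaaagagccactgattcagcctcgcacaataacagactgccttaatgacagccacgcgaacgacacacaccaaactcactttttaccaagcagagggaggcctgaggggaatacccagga
Jag1: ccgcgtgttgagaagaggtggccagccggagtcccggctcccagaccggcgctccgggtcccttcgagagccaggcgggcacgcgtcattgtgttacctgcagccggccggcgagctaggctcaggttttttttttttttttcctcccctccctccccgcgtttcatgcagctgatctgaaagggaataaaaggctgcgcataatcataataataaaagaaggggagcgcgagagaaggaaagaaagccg

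Among the other pathway genes named further on, 19 of 26 had windows in the table, and 3 of these genes held GTGGGAA: Hes5, Cr2 and Psen2. That is 3 of their 29 windows, or 10.3%, against 5.42% of all 32851 windows. The core TGGGAA lay in 5 of the 19 genes, while 21.6% of all windows held it, a share per window and not per gene. The 26 genes were picked from called genes, and no difference between these shares was tested. Hes5 and Cr2 are known Notch targets and were called higher at the probe set used. The windows of Hes5 (chr4:154960673-154960922, plus strand) and Cr2 (chr1:195176720-195176969, minus strand) are shown, with the 7-letter match in capitals. Hes5 holds it on both strands, with the core beginning 226 and 82 bases before the start. In Cr2 it lies on the gene's own strand, with the core beginning 220 bases before the start. A match is a description of letters and shows no binding. The rise of Hes5 was not shared by its other probe set (0.06 ± 0.10), and Cr2 lost its call under 6 of 18 alternatives. Psen2 was also called higher, and its window is not shown.
Hes5: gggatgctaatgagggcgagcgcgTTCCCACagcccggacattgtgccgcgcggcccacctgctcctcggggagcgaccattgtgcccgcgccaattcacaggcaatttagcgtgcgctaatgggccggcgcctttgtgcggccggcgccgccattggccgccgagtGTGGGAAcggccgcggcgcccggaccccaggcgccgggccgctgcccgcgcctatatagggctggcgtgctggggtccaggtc
Cr2: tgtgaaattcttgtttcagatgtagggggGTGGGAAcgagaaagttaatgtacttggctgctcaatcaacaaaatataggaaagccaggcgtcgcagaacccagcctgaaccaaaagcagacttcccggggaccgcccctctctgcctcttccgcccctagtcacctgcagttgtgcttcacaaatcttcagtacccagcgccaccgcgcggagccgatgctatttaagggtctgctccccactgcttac

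Of the 10 members, 3 were higher and 2 lower in sorted samples, and 5 did not pass the test (limma, Benjamini-Hochberg adjusted p under 0.05 over all genes). Dtx1, Hes1 and Dll1 rose, by 6.22-fold, 2.63-fold and 2.03-fold, and Jag1 and Rbpj fell. Rbpj was 1.61-fold lower. Jag1 read 4.68-fold lower, against sorted values so low on the scale that they cannot be told from background, so this fold is a reading of the arrays and not the size of a fall in RNA. The receptors Notch1, Notch2 and Notch4, the coactivator Maml1 and the target Nrarp did not pass. Across all genes 32.6% were called (14.5% higher and 18.1% lower), against 5 of 10 members. The median difference of the members was 0.11 on the log2 scale and that of all genes -0.00206. For the same 5 members the 3 sorted values lay wholly above (3 genes) or below (2 genes) the 3 presort values, which held for 44.4% of all genes (20.9% above and 23.6% below). Whole marrow and a sorted fraction hold different mixtures of cells, and in bulk RNA fewer cells of a type and less RNA per cell cannot be told apart.

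**Figure D1:**
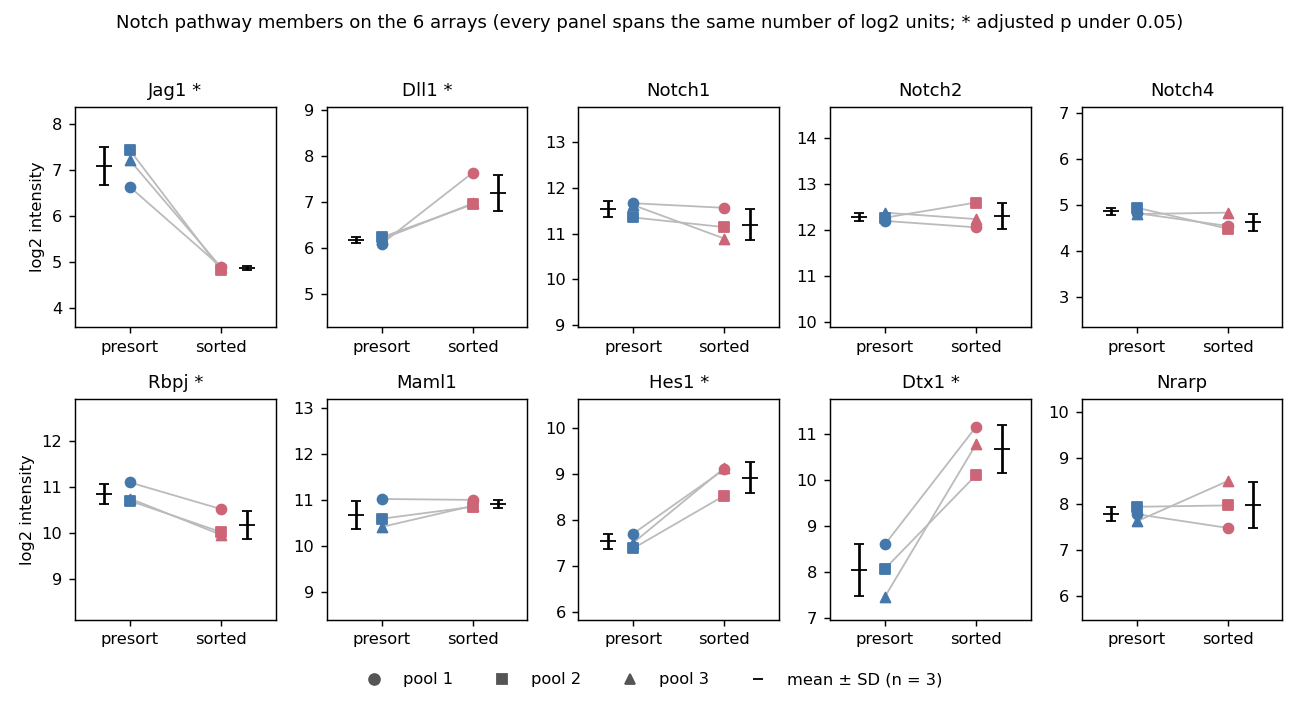
Log2 intensity of the 10 Notch pathway members on each of the 6 arrays, presort at left and sorted at right, with the samples of 1 pool joined by a line and the mean ± SD of each group (n = 3) beside them; every panel spans the same number of log2 units. Dtx1, Hes1 and Dll1 lie higher in all 3 sorted samples, Jag1 and Rbpj lie lower, and the groups of the other 5 overlap.

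Arrays of the same group correlated across genes, which are not independent replicates, at 0.986 to 0.996, and arrays of different groups at 0.922 to 0.948. Sorted replicate 1 stood apart in RNA quality: beta-actin read higher at its 3' end than at its 5' end by 3.17 there, against 1.43 to 1.54 in the other sorted and 0.81 to 1.11 in the presort samples (two-sided exact permutation p = 0.1, the smallest possible for 3 against 3). Without this array the members' counts were 3 higher and 3 lower, and with the beta-actin difference as a covariate they were the same. When every array was shifted to a common median over genes, the median difference of all genes became 0.225 and the share of called genes that were higher went from 44.4% to 66.7%; of the called members 60.0% were higher as deposited and 75.0% with centring.

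The ligands moved in opposite directions. Jag1, a ligand of the Serrate type that marrow stroma and macrophages are known to display, stood at 6.64, 7.44 and 7.22 in presort replicates 1, 2 and 3 and at 4.90, 4.83 and 4.89 in the sorted ones. The sorted values were nearly equal and all below the lowest presort value. The difference was -2.23 ± 0.20 (SE, limma adjusted p = 9.27e-05), and in the pools it was -1.74, -2.60 and -2.33. The sorted values lie low on the scale and no detection calls were used, so the array's background may set the lower end of these differences. The fall rests on 1 of 3 Jag1 probe sets. The other 2, 1421105_at and 1421106_at, were dim in both groups and did not pass, at -0.04 ± 0.10 and -0.22 ± 0.16 (adjusted p over 34945 probe sets of 0.824 and 0.404). With the mean of the 3 probe sets the fall of Jag1 was -0.83 ± 0.11.

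Dll1, a ligand of the Delta type, stood at 6.08, 6.22 and 6.18 in presort samples and at 7.63, 6.94 and 6.96 in sorted ones. All sorted values were higher, and sorted replicate 1, the array with the largest 3' to 5' difference, was the highest. The rise was 1.02 ± 0.19 (SE, adjusted p = 0.00434), from 1 probe set, with pool differences of 1.56, 0.72 and 0.78. Without sorted replicate 1 it was 0.79 ± 0.11 (adjusted p = 0.00142), and with the beta-actin covariate 0.60 ± 0.15 (0.0232).

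None of the 3 receptors passed the test. Notch2 stood at 12.19, 12.26 and 12.37 in presort samples and at 12.05, 12.59 and 12.23 in sorted ones, so the sorted values lay on both sides of the presort range. Its difference was 0.02 with a 95% confidence interval from -0.34 to 0.38, which leaves out a change of 2-fold in either direction (1 on the log2 scale). The second probe set, 1451889_at, was dim and gave 0.13 (interval -0.25 to 0.51), and all 18 alternatives left Notch2 uncalled, with differences from -0.14 to 0.25. Notch1 stood at 11.66, 11.35 and 11.62 in presort and at 11.56, 11.14 and 10.89 in sorted samples. It was lower in each pool, by -0.10, -0.21 and -0.73, but the groups overlapped and the difference of -0.35 ± 0.18 (interval -0.77 to 0.08) missed the threshold (adjusted p = 0.214). Without sorted replicate 1 the difference was -0.53 ± 0.15 (adjusted p = 0.0305) and with the beta-actin covariate -0.70 ± 0.17 (0.0240), so that Notch1 passed under these settings, while without pool 3 it was -0.15. The second Notch1 probe set stood at -0.33, with its largest difference in pool 1 (-0.64) and not in pool 3 (-0.15). Notch4, the receptor known from endothelium, lay low on the scale, at 4.82, 4.94 and 4.80 in presort and at 4.54, 4.48 and 4.83 in sorted samples (means of 4.86 ± 0.08 and 4.62 ± 0.18, SD, n = 3). The groups overlapped, and the difference of -0.24 had an interval from -0.53 to 0.05. Its 3 probe sets stood at -0.24, 0.22 and -0.11 and did not share a sign. No detection calls were used here, so a level as low as this cannot be told from background.

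**Figure D2:**
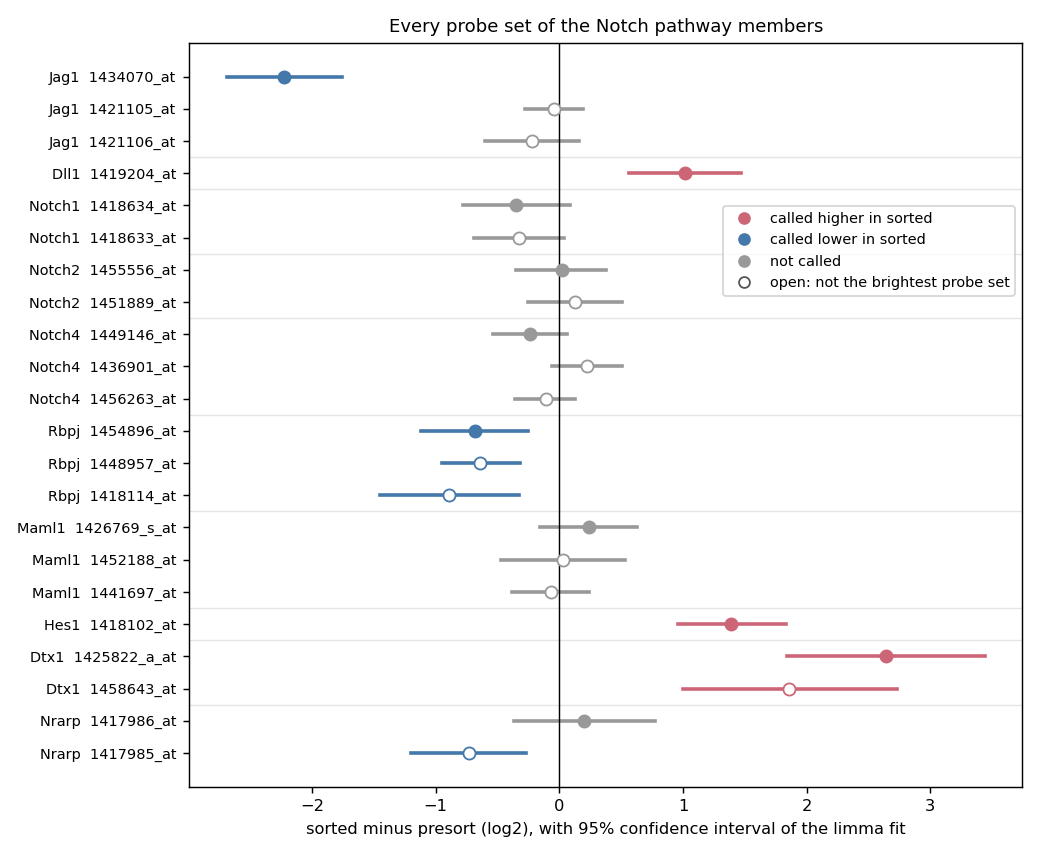
Sorted minus presort difference on the log2 scale for each of the 22 member probe sets (points) with the 95% confidence interval of the limma fit (lines), coloured by call; filled points are the brightest probe set of a gene. All 3 Rbpj and both Dtx1 probe sets were called in 1 direction, whereas Jag1 was called at 1 of 3 and Nrarp at the dimmer of 2.

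Rbpj, the DNA-binding factor shared by all Notch receptors, was lower at each of its probe sets. The brightest one stood at 11.10, 10.70 and 10.75 in presort and at 10.52, 10.02 and 9.96 in sorted samples. Each sorted sample was below the lowest presort sample, and presort replicate 1 and sorted replicate 1 were both the highest of their group. The difference was -0.68 ± 0.18 (SE, adjusted p = 0.0228), and it was -0.58, -0.69 and -0.78 in pools 1, 2 and 3. The other probe sets, 1448957_at and 1418114_at, fell by 0.64 ± 0.13 and by 0.89 ± 0.24 (limma, adjusted p over probe sets of 0.00962 and 0.0270). The call was lost under median centring, which raised the median of all genes to 0.225: Rbpj then stood at -0.46 ± 0.21 (adjusted p = 0.110). It was also lost on leaving out presort replicate 1 (-0.56) or 3 (-0.74), or sorted replicate 2 (-0.61) or 3 (-0.58), or the whole of pool 2 (-0.68) or 3 (-0.63), where adjusted p ran from 0.0523 to 0.142. The fits with an array or a pool left out had no block for the pool. The call was kept with the pool as a block (0.00342), with the mean of the 3 probe sets (-0.74, 0.00358) and with the beta-actin covariate (-1.05, 0.00359).

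Maml1, the coactivator that completes the complex on DNA, stood at 11.03, 10.60 and 10.42 in presort and at 11.01, 10.86 and 10.88 in sorted samples. The sorted values fell within the presort range, and the difference of 0.24 had an interval from -0.15 to 0.62 (adjusted p = 0.354). Its other 2 probe sets stood at 0.03 and -0.07.

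The genes with 6 values most like those of Rbpj, each gene's mean taken off, were Pigk, Lrrc40, Tab3, P2rx1 and Bckdk, at distances of 0.17 to 0.25 (root of the summed squared log2 differences over the 6 arrays). All 5 were lower in sorted samples, which the choice by likeness to Rbpj fixed in advance, by differences of -0.73, -0.64, -0.59, -0.74 and -0.84. For Notch1 the nearest were Ralgapa1, Tab1 and Egln3 (distances of 0.15 to 0.20), and for Notch2 they were Nsun7, Trpv1 and Bean1 (0.05 to 0.09), of which none was called. Those near Notch2 lay low on the scale, with presort means of 5.31, 4.34 and 4.35 against 12.27 for Notch2 itself. All 18193 genes were searched on the same 6 values, so the directions and calls of these neighbours follow largely from the choice. The likeness is a description of these 6 arrays.

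The targets differed among themselves. Dtx1, a Deltex ubiquitin ligase that Notch signalling induces in lymphocytes, had the largest rise of the members. It stood at 8.59, 8.06 and 7.45 in presort and at 11.15, 10.10 and 10.77 in sorted samples. No sorted value came near the presort range, although presort samples differed by more than 1 among themselves. The rise was 2.64 ± 0.34 (SE, adjusted p = 0.000594), with 2.56, 2.04 and 3.32 in the pools. The second probe set, 1458643_at, rose by 1.86 ± 0.37 (limma, adjusted p over probe sets of 0.00751), and over all 18 alternatives the rise of Dtx1 ran from 2.11 to 2.94 with the call kept.

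Hes1, a basic helix-loop-helix repressor and a direct target of the Rbpj complex in many tissues, stood at 7.71, 7.39 and 7.51 in presort and at 9.11, 8.54 and 9.14 in sorted samples. The groups did not overlap. The rise was 1.39 ± 0.18 (SE, adjusted p = 0.000677), with 1.39, 1.15 and 1.63 in the pools, and it kept its call in all 18 alternatives, from 1.23 to 1.62. Hes1 has 1 probe set on this array.

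Nrarp, a small ankyrin repeat protein that Notch induces and that dampens its signal, gave contrary readings. At the brightest probe set, 1417986_at, it stood at 7.78, 7.94 and 7.62 in presort and at 7.48, 7.97 and 8.50 in sorted samples, a difference of 0.20 with an interval from -0.36 to 0.76 (adjusted p = 0.613). Pool 1 was lower (-0.30) and pool 3 higher (0.87), and without pool 3 the difference was -0.13. The other probe set, 1417985_at, fell by 0.73 ± 0.20 (limma, adjusted p over probe sets of 0.0291), with pool differences of -0.95, -1.10 and -0.16. Within each array the first exceeded the second by -0.11, -0.05 and -0.14 in presort and by 0.54, 1.08 and 0.89 in sorted samples. This gap was higher on all 3 sorted arrays than on any presort array (two-sided exact permutation p = 0.1, the smallest possible), and no single direction can be given for Nrarp from its 2 probe sets.

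Over all 22 member probe sets 4 were called higher and 5 lower (40.9%), against 28.8% of the 34945 single-symbol probe sets (13.5% higher and 15.3% lower). The 4 were those of Dtx1, Hes1 and Dll1, and the 5 were the 3 of Rbpj and 1 each of Jag1 and Nrarp.

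**Figure D3:**
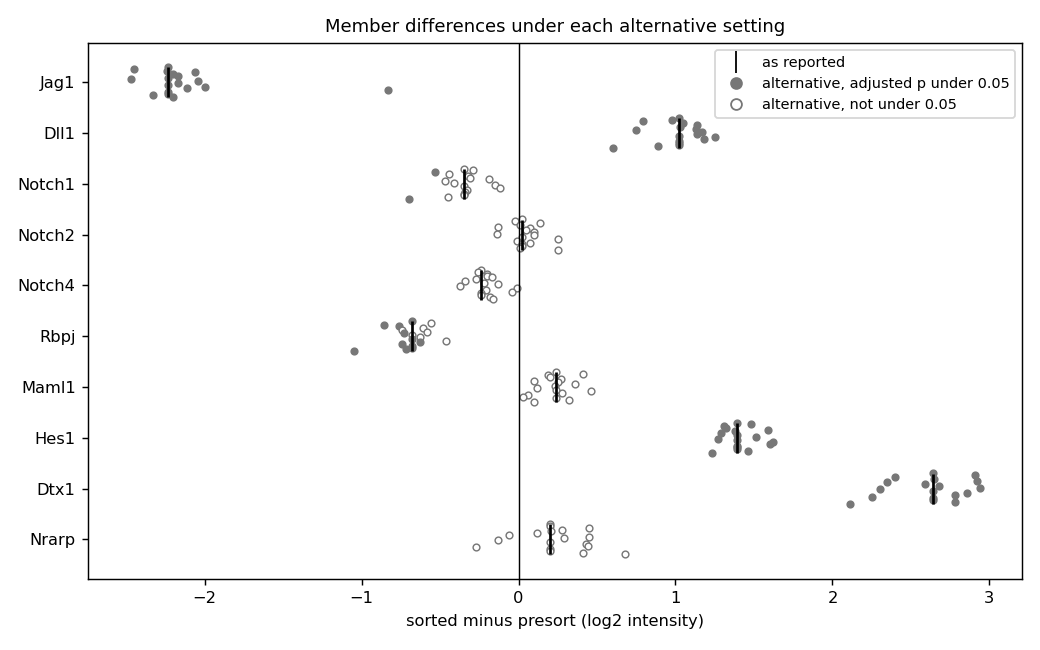
Sorted minus presort difference on the log2 scale for each member as reported (upright ticks) and under the alternative settings (points, filled where the adjusted p was under 0.05). Dtx1, Hes1, Dll1 and Jag1 kept direction and call throughout, Rbpj kept its direction but lost the call under 7 of 18 settings, and Notch2 and Nrarp changed sign.

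The rest of the pathway was read from lists of 88 further genes, of which 82 were analysed here. Of these, 23 were higher and 9 lower in sorted samples (14.5% and 18.1% of all genes were) and 50 did not pass. Their median difference was 0.0813. Without pool 3 only 9 of the 82 were higher and 8 lower, while over all 18193 genes the counts came down as well, to 1544 higher (8.49%) and 2362 lower.

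Among the other receptors and ligands 1 of 7 passed: Dll4, a Delta ligand, rose by 0.46 ± 0.13 (adjusted p = 0.0277) at the brighter of 2 probe sets, a call lost under 9 of 18 alternatives. These include leaving out any presort sample (0.41 to 0.51), sorted replicate 3 (0.36) or any pool (0.42 to 0.49), as well as the beta-actin covariate (0.51) and the mean of its probe sets (0.16). Notch3 stood at -0.31, Jag2 at 0.09, Dll3 at -0.10, Dlk1 at -0.02, Dlk2 at 0.35 and Dner at -0.10, none of them called. Of the ligand traffic genes 2 of 7 fell and 1 rose. The ubiquitin ligase genes Neurl1b and Mib1, whose proteins drive uptake of bound ligands, stood at -0.89 ± 0.13 and -0.88 ± 0.18, and Neurl3 at 0.78 ± 0.17. Of the dimmer Mib1 probe sets, 1433853_at was called lower (-0.60) and 1451818_at was not called (-0.29). Without pool 3 the calls of Mib1 (-0.84) and Neurl3 (0.81) were lost, as they were with the beta-actin covariate. Of the 5 genes for sugar transfer to Notch, only Mfng, which encodes a fringe glycosyltransferase, passed, at 0.65 ± 0.14, and without pool 3 (0.53, adjusted p = 0.107) or with the covariate (0.55, 0.0639) it did not. Lfng stood at -0.37, Rfng at 0.00, Pofut1 at -0.57 and Poglut1 at 0.48. With the pool as a block Poglut1 passed (adjusted p = 0.0455).

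Of 8 genes for Notch cleavage 3 rose and 1 fell. The ADAM protease genes Adam10 and Adam17 stood at 0.36 ± 0.11 and 0.56 ± 0.13, and Psen2, a catalytic subunit of gamma-secretase, at 0.64 ± 0.15. Their other probe sets did not all follow: of the other 3 of Adam10 1 was called higher (0.62) and 2 stood at -0.38 and -0.15, those of Adam17 stood at 0.34 and -0.12 and that of Psen2 at -0.20. With the mean of the probe sets Adam10 stood at 0.11, Adam17 at 0.26 and Psen2 at 0.22, and none passed. The covariate ended the calls of Adam10 (0.40) and Adam17 (0.51). The Adam10 call was also lost without any presort sample (0.33 to 0.38), sorted replicate 2 (0.30), sorted replicate 3 (0.39) or any pool (0.32 to 0.38), that of Adam17 without presort replicate 2 (0.52) or pool 3 (0.47), and that of Psen2 without pool 2 (0.51) or pool 3 (0.61). Furin, the convertase that makes the first cut in the receptor, fell by 0.69 ± 0.11 (adjusted p = 0.00190) and kept its call in all 18 alternatives.

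Of 6 other coactivators 2 rose. The histone acetyltransferase gene Crebbp rose by 0.72 ± 0.13 where it was brightest and by 1.07 to 1.14 at its other 3 probe sets, and Snw1 rose by 0.46 ± 0.12. Leaving out pool 3 ended the call of Crebbp (0.59, adjusted p = 0.0575). Snw1 lost its call on leaving out presort replicate 1 (0.44) or 3 (0.46), or pool 2 (0.42) or 3 (0.45). Its other probe sets stood at 0.34 and 0.48 and were not called. Of 17 corepressors 5 rose and 1 fell. L3mbtl3, a chromatin protein that binds Rbpj, stood at 9.25, 9.27 and 9.24 in presort and at 10.96, 11.04 and 11.06 in sorted samples. Replicates differed little in either group, and the rise was 1.77 ± 0.10 (adjusted p = 2.01e-05), with all 3 of its probe sets called and 1.11 with their mean. Kdm5a (0.68) and Nkap (0.62) also rose. The Nkap call ended without pool 3 (0.62, adjusted p = 0.0801), with the covariate (0.43) and with the mean of its probe sets (0.10). Kdm1a, a histone demethylase, rose by 0.70 ± 0.11 and Tle4, a Groucho corepressor, by 0.78 ± 0.17, the latter not without pool 3 (0.64, 0.109) or with the covariate (0.60, 0.0827). Ctbp2 stood at 8.88, 9.13 and 9.18 in presort and at 6.37, 6.69 and 6.80 in sorted samples. It fell by 2.44 ± 0.15 (adjusted p = 2.36e-05), with both probe sets called, while its paralogue Ctbp1 stood at -0.04.

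The Deltex family split. Dtx2 rose by 1.48 ± 0.14 (adjusted p = 0.000140) at 1439429_x_at, a probe set of the kind that can match several transcripts. It rose by 0.99 at its second probe set, also called, in the direction of Dtx1. Dtx4 stood at 10.03, 9.77 and 9.99 in presort and at 7.69, 7.81 and 7.51 in sorted samples and so fell by 2.26 ± 0.13 (2.02e-05), also at its second probe set (-0.80). Among the 12 turnover genes and inhibitors 3 rose and 3 fell, with Dtx3 (0.38) and Nedd4 (-0.68) beside those named here. The call of Dtx3 was lost under 10 of 18 alternatives, among them leaving out any presort sample (0.33 to 0.41), sorted replicate 1 (0.39) or 3 (0.32), or any pool (0.33 to 0.42). Numb, an adaptor that inhibits Notch, fell by 0.97 ± 0.18, a call that ended on leaving out pool 3 (-0.90, 0.0639), and with the mean of its probe sets it stood at -0.54. The dimmer Numb probe set stood at -0.11 and was not called. Fbxw7, the ubiquitin ligase subunit that marks active Notch for destruction, rose by 0.87 ± 0.13 at 1 probe set and by 0.84 at the other.

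Of 8 other Hes and Hey genes 3 rose and none fell. Hes6 rose by 1.49 ± 0.15 (adjusted p = 0.000175) at 1436050_x_at, a probe set of the kind that can match several transcripts. Its other probe set, 1452021_a_at, was also called, at 1.01. Hes5, whose window with 2 GTGGGAA matches is shown above, rose by 1.24 ± 0.19 at 1456010_x_at, a probe set of the kind that can match several transcripts. There it stood at 6.63, 6.48 and 6.46 in presort and at 8.19, 7.51 and 7.58 in sorted samples. Its other probe set, 1423146_at, stayed between 6.49 and 6.61 on all 6 arrays and gave 0.06 ± 0.10, so the rise of Hes5 is not shared by its probe sets. Hey1 rose by 0.96 ± 0.29 (adjusted p = 0.0386), with 1.63, 0.01 and 1.25 in the pools. Leaving out any presort sample (0.87 to 1.11), sorted replicate 1 (0.68), sorted replicate 3 (0.91), pool 1 (0.63) or pool 3 (0.82) ended its call, and with the beta-actin covariate it stood at 0.45. Heyl, Hey2, Hes2, Hes3 and Hes7 stood between -0.22 and 0.15 and did not pass.

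Among 12 genes known as Notch targets in lymphocytes 4 rose and 2 fell. Il2ra, the alpha chain of the interleukin-2 receptor, stood at 7.58, 6.21 and 6.08 in presort and at 11.06, 9.77 and 10.04 in sorted samples. It rose by 3.66 ± 0.46 (12.7-fold, adjusted p = 0.000517), with both probe sets called. Cd1d1, an antigen-presenting molecule abundant on marginal zone B cells, rose by 2.19 ± 0.12 (1.86e-05). Cr2, the complement receptor of mature B cells, rose by 1.45 ± 0.38 (0.0194), with pool differences of 1.35, 0.62 and 2.37. Leaving out presort replicate 2 (1.50) or 3 (1.13), sorted replicate 1 (1.22) or 3 (1.30), or pool 3 (0.98) ended the Cr2 call, and with the covariate it stood at 0.96 (adjusted p = 0.191). Myc fell by 1.06 ± 0.13 (0.000465) with pool differences of -1.24, -1.02 and -0.91. Runx1 (0.64) rose and Ccnd3 (-1.05) fell at their brightest probe sets. Runx1 did not pass on leaving out presort replicate 1 or 3 (0.60 each), sorted replicate 3 (0.54), pool 2 (0.66) or pool 3 (0.51). With the mean of its 3 probe sets Ccnd3 stood at 0.21 and did not pass (adjusted p = 0.222), so no single direction can be given for it. The T cell targets Ptcra, Gata3 and Bcl11b stood at -0.02, 0.00 and -0.17 and did not pass.

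**Figure D4:**
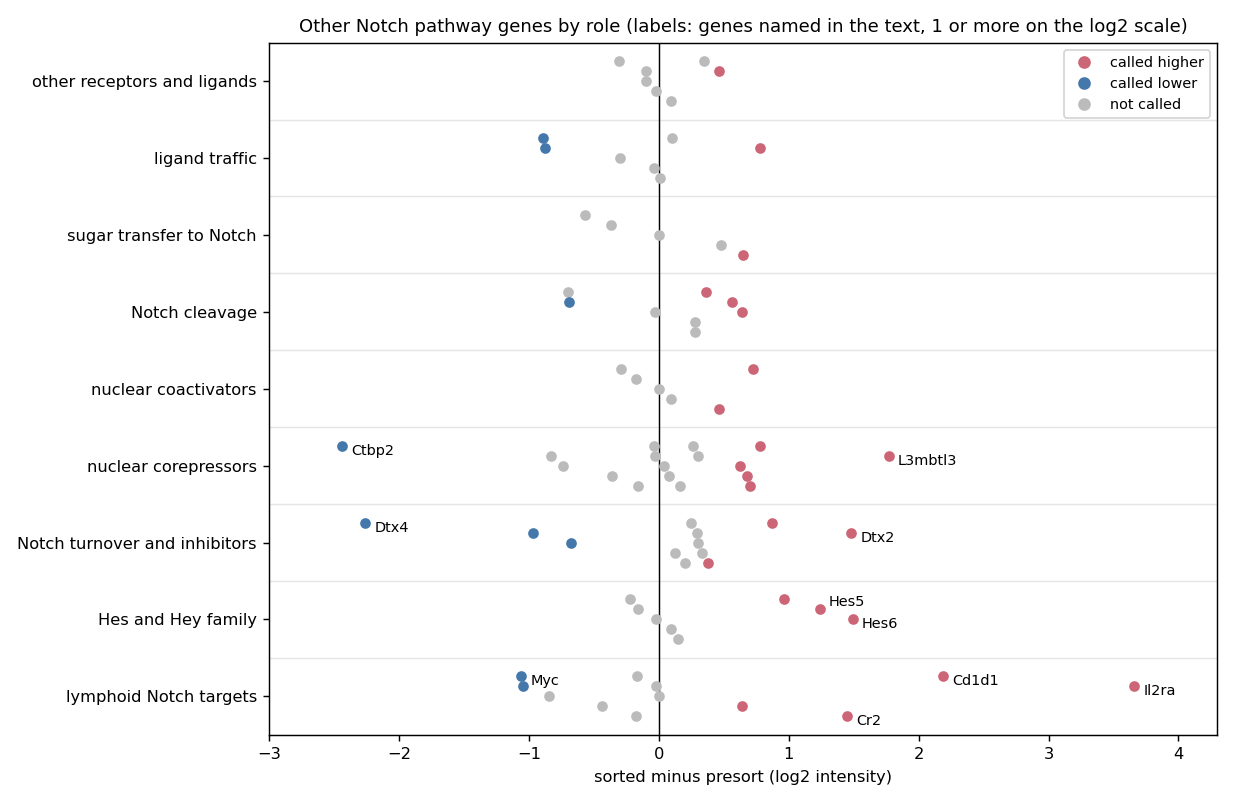
Sorted minus presort difference on the log2 scale for the 82 other pathway genes (points) by role, coloured by whether they were called higher, lower or not. Ctbp2, Dtx4 and Myc are labelled among the lower genes, and Il2ra, Cd1d1, L3mbtl3, Hes6, Dtx2, Cr2 and Hes5 among the higher ones.

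Markers of marrow cell types were read beside these results. All 9 measured B cell markers rose (median 2.27), and their summed linear intensity went from 10078 to 20680 in presort to 67667 to 77306 in sorted samples; the brightest, Cd79b and Ms4a1, rose by 2.57 and 2.27. Of 7 markers of marginal zone B cells, which include Dtx1, Cr2 and Cd1d1 themselves, 5 rose while Cd9 (-2.88) and Cd36 (-2.21) fell (sums of 4968 to 5752 and 8189 to 9121). Of the T cell markers 2 of 11 fell and 0 were called higher, with sums of 1392 to 1787 in presort and 979 to 1397 in sorted samples. Over all genes 18.1% were called lower and 14.5% higher, so the T cell count is near the share of all genes called lower. The part of the B cell markers' rise in the differences of Dtx1, Hes1, Dll1, Il2ra, Cd1d1 and Cr2 was not tested.

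Beside the falls of Jag1, Rbpj, Ctbp2 and Dtx4, all 9 erythroid markers (sums of 66253 to 69045 in presort and 10954 to 25086 in sorted samples), all 10 neutrophil markers (200452 to 209578 and 57252 to 106517) and all 9 monocyte and macrophage markers (17325 to 24114 and 1892 to 5287) fell. Of the megakaryocyte markers 4 of 7 fell (sums of 1408 to 6945 and 699 to 2523), of the stem and progenitor markers 4 of 8 fell and 1 rose (1905 to 2306 and 701 to 895), and of the stroma and mural cell markers 3 of 9 fell (1241 to 2124 and 505 to 763), among them Cxcl12 at -2.42 and Acta2 at -1.91. Of the endothelial markers 1 of 9 was higher and 1 lower (sums of 807 to 934 and 783 to 906), while 14.5% of all genes were higher and 18.1% lower. The part of all these markers in the falls was not tested.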

How the data were processed

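RNA of 3 presort and 3 sorted marrow samples was read on 1 array each. The authors deposited linear intensities (9.71 to 38492.08) from RMA (per the submitters' processing notes), with no version given in the sources used here. All 6 arrays share 1 distribution, so a change in total RNA per cell leaves no trace. Log2 was taken with no pseudocount. Of 45101 probe sets, 34945 carried 1 symbol in the platform annotation and were used; 932 with several symbols, 9160 without one and 64 controls were not. The test was lmFit with eBayes from limma 3.58.1 (R 4.3.3), without a block and with 4 residual degrees of freedom (two-sided, Benjamini-Hochberg over 18193 genes, threshold 0.05), and a separate fit covered all probe sets. The fit was also tested on simulated data of 18193 genes, with 200 genes shifted in all, some by 1 log2 unit and the others by 2. There it found 64% of the genes shifted by 1 log2 unit and 97% of those shifted by 2, with 5 false calls. In the real comparison 5925 genes (32.6%) were called, and recovery with so large a share of changed genes was not tested.

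The members and lists were chosen with earlier results of these data known. Named were all members, up to 4 called genes with the largest difference per pathway list, members needed to account for a short list, the nearest profiles to Rbpj, Notch1 and Notch2, and the brightest markers; Cd9, Cd36, Ctbp1, Kdm5a, Nkap, Dtx3, Nedd4, Runx1, Ccnd3, Spen, Sap30, Fhl1, the other receptors and ligands, the lymphoid genes Ptcra, Gata3 and Bcl11b, and the dim Hes and Hey genes were named after their values were seen. Same-numbered samples come from 1 pool, per the labels, and their deviations from the group means correlated at 0.39, 0.20 and -0.03. With 3 arrays a group, their number limits the precision. Alternatives were the pool as a block, each array or pool left out, the dimmest 33.3% of genes left out, median centring, quantile normalization over genes, the mean of probe sets, leaving out probe sets ending in _x_at or _s_at, a robust prior that follows intensity, array weights and a beta-actin 3' to 5' covariate. Plots used matplotlib 3.10.9 (Python 3.11.15).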

Additional observations from a re-analysis of the deposited data

How the results depend on the processing

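Over 18 alternatives Dtx1, Hes1, Dll1 and Jag1 kept their direction and their call. The count of higher members was 3 in each of them. The count of lower members, 2 as reported, was 1 with each array centred on its median, since Rbpj was not called there, and ran from 1 to 3 with an array or a pool left out. Over all genes 2629 were higher as reported, 5162 with median centring and 1544 to 2608 with an array or a pool left out. Of the other pathway genes 23 were higher as reported and 9 to 24 with an array or a pool left out, with the lowest count without pool 3. The cause was not tested beyond the loss of samples. With median centring 32 of these pathway genes were higher, and with quantile normalization over genes 28 were. With the pool as a replicate block 2860 genes were higher and 3548 lower, 3 members were higher and 2 lower, and 24 and 12 of the other pathway genes were; it ended no call of a member or of another pathway gene, and gave 4 pathway genes a call: Poglut1 (0.48), Spen (-0.74), Sap30 (-0.36) and Fhl1 (-0.83), with adjusted p of 0.0455, 0.0173, 0.0484 and 0.0479. Notch2 changed sign with quantile normalization over genes (-0.01) and ran from -0.14 to 0.14 with an array or a pool left out. Nrarp changed sign when its probe sets were averaged (-0.27) and without sorted replicate 3 (-0.06), and ran from -0.13 to 0.45 with an array or a pool left out. Neither was called under any alternative. Of the 32 called pathway genes 14 kept their call in all alternatives run and 17 lost it in at least 1 without a change of sign, of which 16 lost it without pool 3. The remaining one, Ccnd3, changed sign with the mean of its probe sets (0.21). Notch4 has no value when the dimmest 33.3% of genes are left out, since it is among them. Small changes of dim genes are limited by the array's background, since no detection calls were used.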
